A study of Mus musculus with 4 samples.

Results

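The matrix metalloproteases, the ADAMTS proteases and the tissue inhibitors of metalloproteases (TIMPs) were examined in 4 bulk RNA libraries of mouse cervical lymph node and lymphoma. The set holds every protein-coding row of the deposited reads table whose symbol begins with Mmp, Adamts or Timp followed by a digit, which gave 46 of 38087 genes: 23 Mmp, 19 Adamts and 4 Timp genes. All 4 samples carry the labels strain C57BL/6, tissue cervical lymph node and age postnatal week 20. The first group has 2 wild-type (WT) samples. The second has 2 samples titled Becn1-M-KO, written KO here, from mice in which Becn1 (Beclin-1, an autophagy gene) was deleted in myeloid cells (Becn1ΔM), with the genotype label Becn1 KO. The series describes the KO tissue as B cell lymphoma and the WT tissue as control node, so the deletion and the tumour cannot be told apart. Xist reads, a mark of female tissue, were 2088 and 5314 in WT and 3 and 34 in KO, so a difference in sex cannot be told apart from either in any comparison. The Cre line is not given in the sources used here, and nothing says whether the samples of 1 group are separate animals. The p-values therefore rest on the spread between 2 samples a group, which may be partly technical.

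Matrix metalloproteases are zinc endopeptidases that are made as inactive proenzymes and cut collagens, proteoglycans and other proteins of the extracellular matrix. They are grouped as collagenases, gelatinases, stromelysins, matrilysins and membrane-anchored enzymes. ADAMTS enzymes are secreted relatives with thrombospondin repeats, among them procollagen N-proteinases, enzymes that cut aggrecan and versican, and the protease of von Willebrand factor. TIMPs bind the active site of these enzymes and block it. In inflamed and tumour tissue, fibroblasts and macrophages are well-known sources of several of these genes.

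Total reads ranged from 15604247 to 20067004 per library, and 0 reads leaves room for up to 3, which is 0.149 to 0.192 CPM (reads scaled to library size) of the library total. Becn1 had WT levels of 54.8 and 63.4 CPM and KO levels of 49.5 and 53.3 CPM (edgeR log2 fold change −0.20, SE 0.21, adjusted p = 0.557), which in whole tissue does not check a deletion in myeloid cells. The WT libraries stood apart from each other. Reads of 4 T cell markers summed to 1.30 CPM in WT replicate 1 and 289 in WT replicate 2 (per library total), against 244 and 240 in KO. B cell marker reads (4 genes), also per library total, were 2.04 and 966 in WT and 1558 and 1477 in KO. Gland epithelial marker reads (5 genes), per library total, were 792 and 734 in WT and 11.2 and 16.4 in KO. Krt8 had 0 reads in KO replicate 1. WT replicate 1 thus had almost no reads from the lymphocyte markers of its labelled tissue, and the main results are also given against each WT library alone. In bulk RNA, fewer cells of a type and less RNA per cell cannot be told apart.

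Of the 23 Mmp genes, 10 lie in 1 cluster on chromosome 9 (mm10, 7272514 to 7699585), and the cluster held Mmp3 and Mmp10, the members with the largest rises called. RefSeq promoter sequences (GRCm38.p6, the same build as mm10) were found for 32 of the 46 members. They were searched over the 250 bases before each start for the AP-1 heptamer TGAGTCA or its reverse complement TGACTCA, a known binding sequence of the Fos and Jun factors. The heptamer was found for 7 of the 32 members, against 5.16% of 27025 genes searched in the same way. All 7 members lie in the chromosome 9 cluster (Mmp1a, Mmp1b, Mmp3, Mmp7, Mmp10, Mmp12 and Mmp13), and the other 3 cluster genes, Mmp8, Mmp20 and Mmp27, had no such letters in this window. A match describes the letters only. The 120 bases before the start are shown for the 4 cluster genes that hold the heptamer and were higher in KO, and for Mmp1a, which holds it and had almost no reads. They run 5′ to 3′ on the plus strand, with the heptamer in capitals.
Mmp3 (chr9:7445702-7445821): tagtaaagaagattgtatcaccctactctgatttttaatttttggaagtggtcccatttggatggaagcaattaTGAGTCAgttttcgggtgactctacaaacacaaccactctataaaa
Mmp10 (chr9:7502222-7502341): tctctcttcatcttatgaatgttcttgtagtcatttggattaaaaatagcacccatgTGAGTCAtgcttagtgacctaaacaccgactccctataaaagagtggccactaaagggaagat
Mmp12, downstream start (chr9:7347254-7347373): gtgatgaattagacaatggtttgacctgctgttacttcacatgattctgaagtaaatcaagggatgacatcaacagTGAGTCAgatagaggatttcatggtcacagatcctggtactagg
Mmp13 (chr9:7272394-7272513): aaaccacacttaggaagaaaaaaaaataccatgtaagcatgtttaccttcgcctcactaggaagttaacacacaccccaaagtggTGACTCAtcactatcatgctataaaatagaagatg
Mmp1a (chr9:7464021-7464140): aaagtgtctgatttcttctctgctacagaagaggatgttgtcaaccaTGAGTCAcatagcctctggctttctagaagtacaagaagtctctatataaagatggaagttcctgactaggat

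The heptamer begins 46 bases before the start in Mmp3, 63 in Mmp10, 44 in Mmp12, 35 in Mmp13 and 73 in Mmp1a. The upstream start of Mmp12, which lies near the start of the deposited gene model, holds none within 250 bases. Timp1 and Mmp14, which also rose, hold none in the promoters searched, and Mmp2 had no entry. Of the 9 members searched that were higher by the 2-fold rule described below, 4 hold the heptamer. Mmp8, Mmp23 and Mmp25, also higher by that rule, hold none. The heptamer was in 0 of 3 lower members, 1 of 18 that passed neither way and 2 of 2 with under 20 reads. A link between the heptamer and the KO values was not tested.

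Most Mmp genes tested had positive values in KO (11 of 16, or 13 with library totals), while the Adamts genes were mostly negative with TMM factors (6 of 19 positive) and mostly positive with library totals (14 of 19). Over all 20695 genes tested, 10443 were positive with TMM factors and 15537 with library totals, which move the median of all genes from 0.01 to 0.60. Reads were tested with edgeR's quasi-likelihood test after TMM scaling, with Benjamini-Hochberg adjustment over all 20695 genes tested and a threshold of 0.05. Of the 46 members 38 had enough reads to be tested, and 5 of them rose: Mmp2, Mmp3, Mmp10, Mmp14 and Timp1. Over all genes tested, 1.04% were called higher and 2.18% lower. No member was called lower by edgeR, and at an unadjusted p under 0.05 the members numbered 9 higher and 3 lower, against 10.5% and 16.4% of all genes. DESeq2 called 7 members higher and 2 lower (Mmp15 and Adamts15), against 5.67% and 10.6% of genes, and limma-voom 4 and 0, against 1.21% and 1.95%. The median log2 fold change was 1.63 over the 16 Mmp genes tested of 23, −0.23 over the 19 Adamts genes and −0.47 over 3 of 4 Timp genes, against 0.01 over all genes tested. The 5 calls had adjusted p-values from 0.037 to 0.0491, close to the threshold. All 5 were lost when either KO library was left out, or when libraries were scaled by their totals alone, as were the calls of all other genes. Without WT replicate 1 the members called numbered 14 higher and 7 lower, against 20.9% and 22.8% of all genes. Without WT replicate 2 they numbered 14 and 11, against 32.3% and 32.5%, with a single WT library left in each case.

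A second description sets both KO libraries against each WT library without a test. A gene passes it when both KO levels lie on 1 side of both WT levels, their mean differs at least 2-fold from each WT library, and the gene has at least 20 reads in all. Of the 44 members with 20 reads, 12 were higher by this rule and 4 lower, against 8.93% and 12.2% of the 22553 genes with 20 reads. The 12 higher members were Mmp2, Mmp3, Mmp8, Mmp10, Mmp12, Mmp13, Mmp14, Mmp19, Mmp23, Mmp25, Adamts4 and Timp1. The 4 lower members were Mmp15, Adamts12, Adamts15 and Timp4. The plot of levels by library shows these genes as rows in which the KO symbols stand clear of the WT symbols, though only narrowly for KO replicate 1 of Mmp8.

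**Figure D1:**
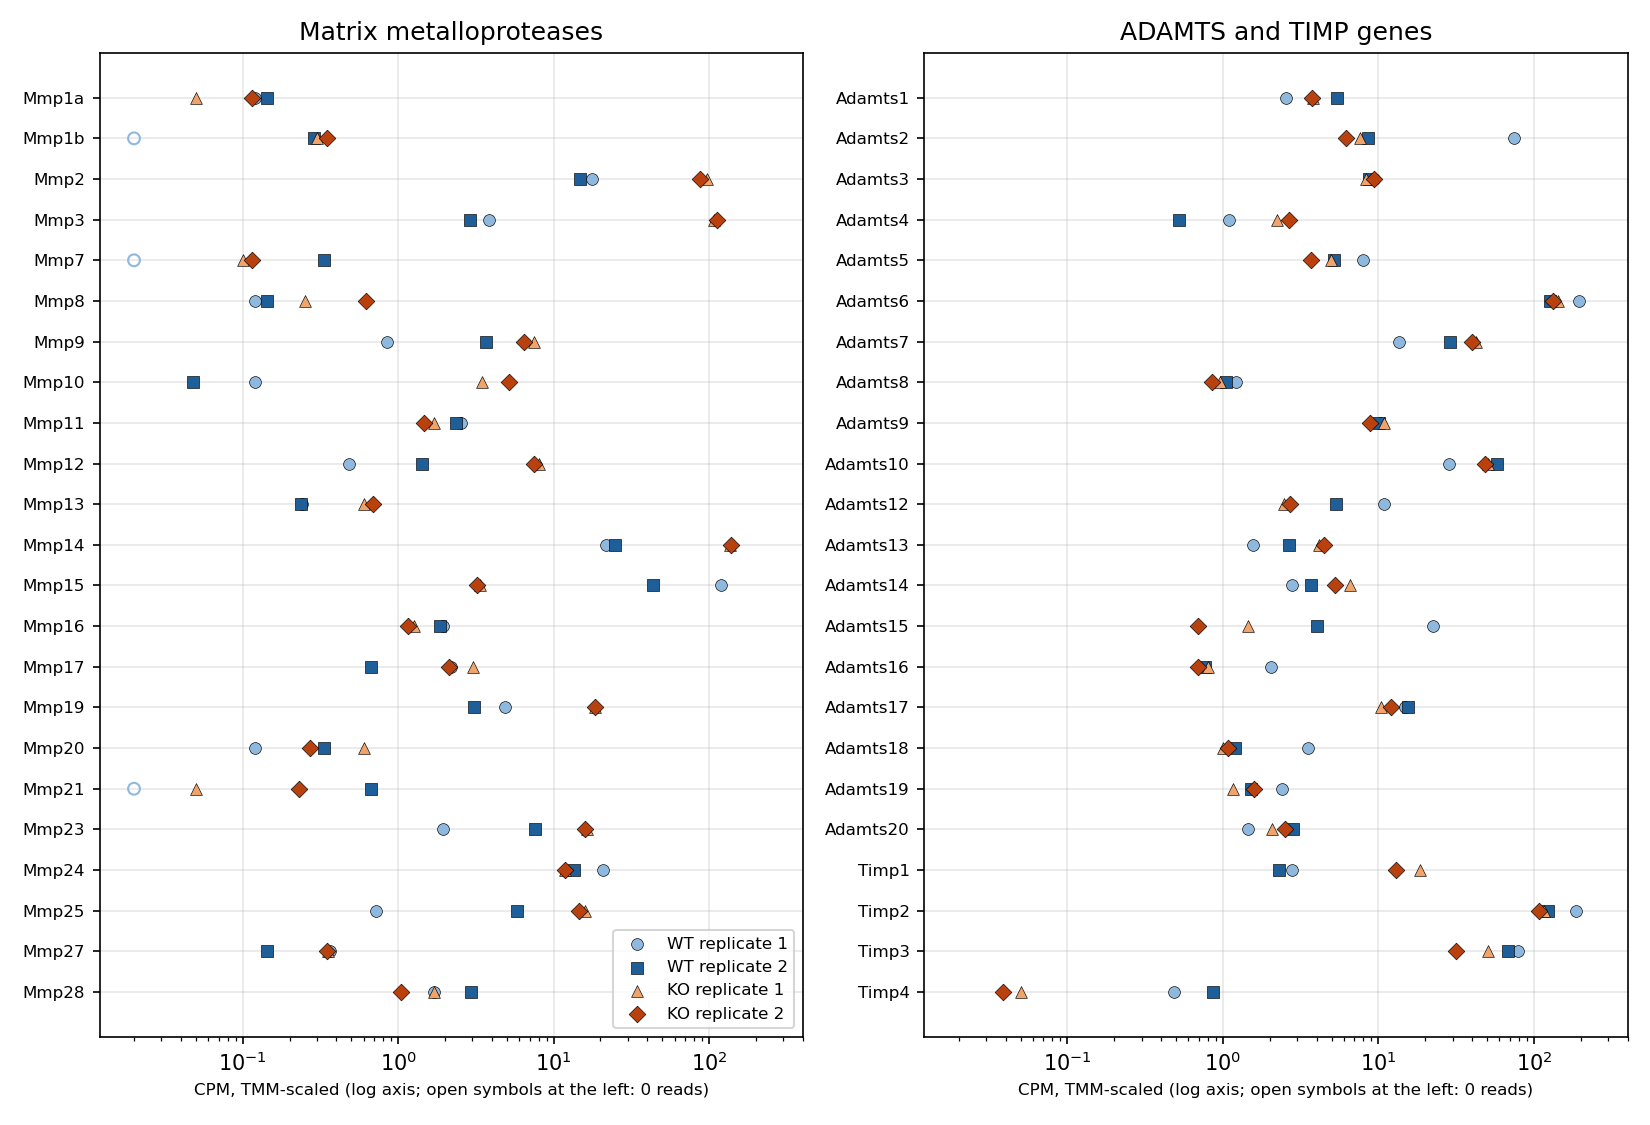
TMM-scaled CPM (log axis) of all 46 members in each of the 4 libraries; each symbol is 1 library and open symbols at the left mark 0 reads. Mmp3, Mmp10, Mmp14, Mmp2 and Timp1 have both KO symbols to the right of both WT symbols, and Mmp15 has both to the left.

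The stromelysins Mmp3 and Mmp10, which cut proteoglycans and fibronectin and can activate other Mmp proenzymes, had the largest rises. Mmp3 (chromosome 9, 7445822 to 7455972) had 32 and 61 WT reads and 2130 and 2913 KO reads, or 3.87 and 2.91 CPM against 107 and 112 CPM. Both WT libraries were low and both KO libraries high, 28.4-fold above WT replicate 1 and 37.7-fold above WT replicate 2. Its log2 fold change was 5.03 (SE 0.28, adjusted p = 0.037, edgeR), and the adjusted p ranged from 1.3e-27 to 0.0564 over all fits of the 4 libraries. Mmp10 (chromosome 9, 7502352 to 7510238) had 1 read in each WT library and 69 and 134 reads in KO. With so few WT reads the groups' ratio of 64.8 has a wide 95% counting interval, from 17.7 to 538. Its log2 fold change was 5.81 (SE 0.63, adjusted p = 0.0456, edgeR). Mmp11, stromelysin-3, is related by name but was not higher with TMM factors. It had WT levels of 2.54 and 2.34 CPM and KO levels of 1.71 and 1.46 CPM (log2 fold change −0.61, adjusted p = 0.314, edgeR). By library totals its KO mean was 1.57-fold the level of WT replicate 1 and 0.743-fold that of WT replicate 2.

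Mmp2 and Mmp14, which act as a pair, rose by similar amounts. Mmp14 encodes a membrane-bound enzyme that activates the proenzyme of Mmp2, the constitutive gelatinase of stromal cells. Mmp14 (chromosome 14, 54431604 to 54441258) had WT levels of 21.6 and 24.8 CPM and KO levels of 137 and 139 CPM, so the libraries of each group lay close together and the groups far apart. Its log2 fold change was 2.57 (SE 0.23, adjusted p = 0.0441, edgeR), or 2.66 against WT replicate 1 alone and 2.48 against WT replicate 2 alone. Mmp2 (chromosome 8, 92827328 to 92853417) had WT levels of 17.5 and 14.7 CPM and KO levels of 96.3 and 87.1 CPM. Its log2 fold change was 2.51 (SE 0.23, adjusted p = 0.0441, edgeR), or 2.37 and 2.65 against WT replicates 1 and 2 alone. For both genes the values against the 2 WT libraries were close with TMM factors. By library totals they lay further apart, at 15.96-fold and 6.08-fold for Mmp14 and 13.1-fold and 6.83-fold for Mmp2.

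Mmp9, the other gelatinase, is typical of neutrophils and macrophages. It had 7 and 77 WT reads and 148 and 167 KO reads, or 0.845 and 3.67 CPM against 7.44 and 6.43 CPM. The KO libraries were both above WT, but the 2 WT libraries differed from each other by more than WT replicate 2 differed from KO on this fold scale. The KO mean was 8.21-fold above WT replicate 1 and 1.89-fold above WT replicate 2, and the log2 fold change of 1.55 (SE 0.72) was not called (adjusted p = 0.261, edgeR).

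Mmp12, the macrophage elastase, and Mmp19 had higher values in KO that missed the threshold. Mmp12 (chromosome 9, 7344381 to 7369499) had 4 and 30 WT reads and 160 and 194 KO reads, or 0.483 and 1.43 CPM against 8.05 and 7.47 CPM. The KO mean was 16.1-fold above WT replicate 1 and 5.42-fold above WT replicate 2, with a log2 fold change of 2.91 (SE 0.57, adjusted p = 0.0778, edgeR). Its last 1261 bases overlap Mmp1b on the opposite strand, which had at most 9 reads. Mmp19 had 40 and 64 WT reads and 365 and 477 KO reads, or 4.83 and 3.05 CPM against 18.4 CPM in both KO libraries. The 2 KO levels were nearly equal and stood 3.80-fold and 6.02-fold above the WT levels (log2 fold change 2.24, SE 0.33, adjusted p = 0.0568, edgeR). DESeq2 called both genes higher, with adjusted p-values of 0.000355 for Mmp12 and 9.3e-05 for Mmp19, as did edgeR without the count filter (0.0448 and 0.0245). The other fits of all 4 libraries left both uncalled, with adjusted p-values up to 0.177 and 0.0865.

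The collagenases, which cleave fibrillar collagen, were scarce. Mmp13 had 2 and 5 WT reads and 12 and 18 KO reads, which is 2.69-fold and 2.72-fold above the 2 WT libraries after scaling (log2 fold change 1.42, SE 0.44, adjusted p = 0.149, edgeR). Mmp8, the neutrophil collagenase, had 1 and 3 WT reads and 5 and 16 KO reads and was not tested. Mmp1a had 8 reads in all 4 libraries together and Mmp1b 21. At this depth no difference in Mmp1a could be seen.

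Among the membrane-anchored and less common members, Mmp23 and Mmp25 were higher in KO by amounts that depended on the WT library. Mmp25, a GPI-anchored enzyme first described in leukocytes, had 6 and 121 WT reads and 317 and 378 KO reads. The KO mean was 21.1-fold above WT replicate 1 and 2.64-fold above WT replicate 2 (log2 fold change 2.16, SE 0.93, adjusted p = 0.236, edgeR). Mmp23 had 16 and 160 WT reads and 327 and 413 KO reads, 8.37-fold and 2.12-fold higher (log2 fold change 1.72, SE 0.69, adjusted p = 0.215, edgeR). Both genes were lowest in WT replicate 1. By library totals that library was also lowest in lymphocyte, macrophage, neutrophil and endothelial marker reads, and highest in gland epithelial marker reads. The part of these cell types in the Mmp23 and Mmp25 values was not tested. Mmp17, also GPI-anchored, had levels in KO (3.02 and 2.12 CPM) that overlapped WT replicate 1 (2.17 CPM) and lay above WT replicate 2 (0.668 CPM).

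Mmp15, a membrane-type relative of Mmp14, went the other way. It had 982 and 912 WT reads and 67 and 84 KO reads, or 119 and 43.5 CPM against 3.37 and 3.24 CPM, so the KO libraries agreed closely and lay far below both WT libraries. Its log2 fold change was −4.61 (SE 0.62) and missed the threshold narrowly (adjusted p = 0.051, edgeR). DESeq2 (3.6e-10) and edgeR without the count filter (0.0169) called it lower, and over all fits of the 4 libraries the adjusted p reached 0.0631. Gland epithelial marker reads were lower in the same libraries, as given above. All 5 markers were lower in KO by the 2-fold rule, against 12.2% of genes. Their part in the Mmp15 value was not tested.

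The 4 other Mmp genes tested showed small negative values with TMM factors, none of them called. The log2 fold changes were −0.53 for Mmp24, −0.65 for Mmp16, −0.79 for Mmp28 and, as given above, −0.61 for Mmp11. By library totals the sign differed between the 2 WT libraries for all 4. Mmp7, Mmp20, Mmp21 and Mmp27 had 12 to 27 reads over all libraries and were not tested.

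Along the chromosome 9 cluster the higher genes were not contiguous. In chromosomal order the cluster runs Mmp13, Mmp12, Mmp1b, Mmp3, Mmp1a, Mmp10, Mmp8, Mmp27, Mmp20 and Mmp7 over 427 kb. Mmp13, Mmp12, Mmp3, Mmp10 and Mmp8 passed the 2-fold rule as higher. Mmp1b lies between Mmp12 and Mmp3, and Mmp1a lies between Mmp3 and Mmp10. Neither had more than 9 reads in a library. The 3 genes at the Mmp7 end had at most 12 reads in any library, and none of them passed the rule.

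**Figure D2:**
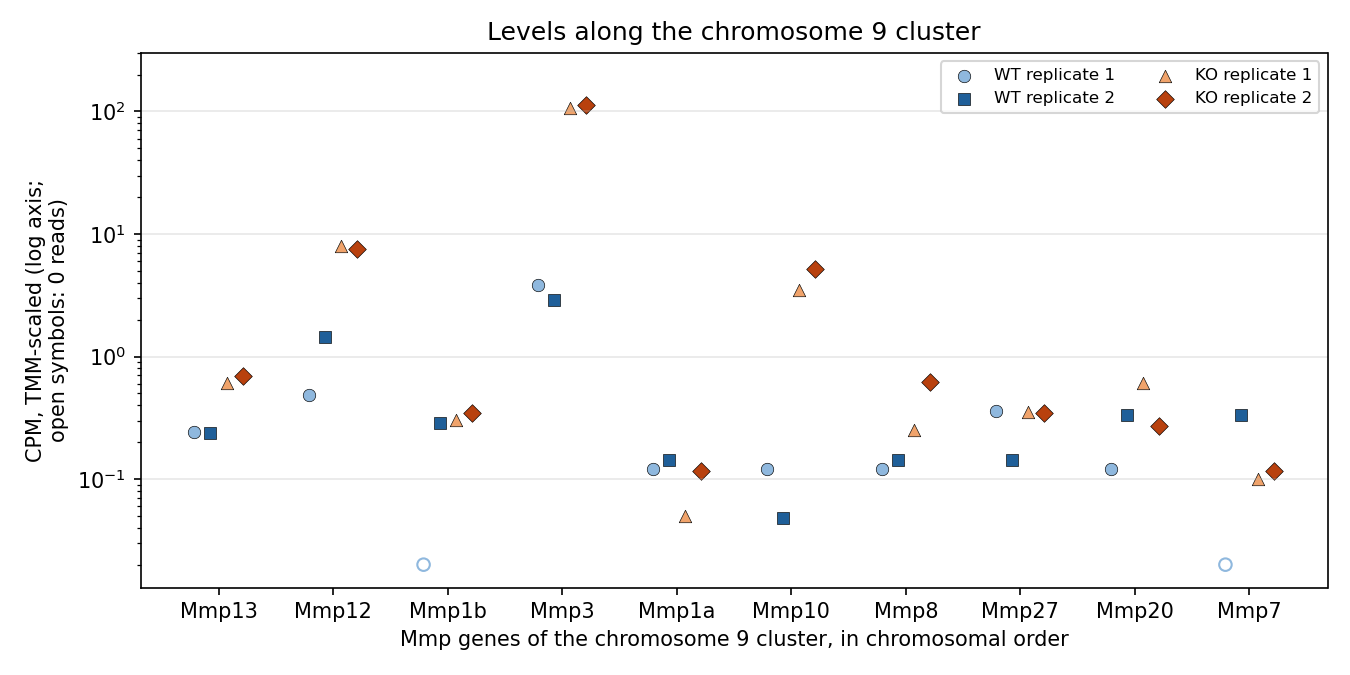
TMM-scaled CPM (log axis) of the 10 Mmp genes of the chromosome 9 cluster in chromosomal order, 1 symbol per library, open symbols for 0 reads. Both KO symbols stand above both WT symbols for Mmp13, Mmp12, Mmp3, Mmp10, Mmp8 and Mmp1b, narrowly for Mmp1b and for KO replicate 1 of Mmp8, while Mmp1a and Mmp7, which lie among or beyond them, reach at most 0.334 CPM.

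Of the inhibitors, Timp1 rose and the other 3 had lower KO levels with TMM factors. With library totals Timp2 turned positive and the groups overlapped for Timp3. Timp1 is the inducible member, which blocks most secreted Mmp enzymes. It had 23 and 48 WT reads and 368 and 337 KO reads, or 2.78 and 2.29 CPM against 18.5 and 12.98 CPM. Its log2 fold change was 2.64 (SE 0.33, adjusted p = 0.0491, edgeR), and over the fits of all 4 libraries the adjusted p ranged from 6.1e-06 to 0.0842. It was not called with DESeq2 size factors (0.0502) or limma-voom (0.0555) either. Timp1 (chromosome X, 20870166 to 20874735) lies within Syn1 on the opposite strand, and the strand used in counting is not given in the sources used here. Syn1 had 49 and 93 WT reads and 424 and 383 KO reads. After the reads of Timp1 were subtracted, 26, 45, 56 and 46 remained, so the counts of both genes moved with the reads that fall inside Timp1. Timp1 is X-linked, and its difference cannot be told apart from one of sex, as for every gene here.

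Timp2, which both inhibits Mmp14 and takes part in Mmp2 activation, had the flattest profile of the 4. It had WT levels of 186 and 123 CPM and KO levels of 116 and 107 CPM (edgeR log2 fold change −0.47, SE 0.31, adjusted p = 0.384). The KO levels were near WT replicate 2, and with library totals in place of TMM factors the sign turned (0.25). Timp3, the matrix-bound inhibitor that also acts on ADAM and ADAMTS enzymes, had WT levels of 79.5 and 67.9 CPM and KO levels of 50.6 and 31.6 CPM (edgeR log2 fold change −0.84, SE 0.32, adjusted p = 0.197). It lies within Syn3 on the opposite strand. Timp4 had 4 and 18 reads in WT and 1 read in each KO library, a WT to KO ratio of 17.2 with a 95% counting interval from 4.24 to 151, and was not tested. It lies within Syn2.

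Read ratios within a library do not depend on how libraries are scaled. The pairs given here were chosen after their values were seen. Mmp2 had 0.0942 and 0.119 reads for each Timp2 read in WT and 0.832 and 0.812 in KO. For Mmp14 the ratio to Timp2 was 0.116 and 0.201 in WT and 1.18 and 1.29 in KO. Timp1 had 0.0149 and 0.0185 reads for each Timp2 read in WT and 0.160 and 0.121 in KO. All 3 ratios were higher in both KO libraries than in either WT library. The ratio of Mmp15 to Mmp14 reads, both membrane-type enzymes, was 5.49 and 1.75 in WT and 0.0246 and 0.0233 in KO.

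The Adamts genes showed no common shift, and edgeR called none of the 19, with 1 positive and 2 negative at an unadjusted p under 0.05, against 10.5% and 16.4% of all genes. DESeq2 called 1 lower (Adamts15), against 10.6% of genes, and limma-voom 0. Of these genes, 1 was higher and 2 were lower by the 2-fold rule, against the 8.93% and 12.2% of all genes given above. Among the enzymes that cut aggrecan and versican, Adamts4 had 9 and 11 WT reads and 44 and 69 KO reads, or 1.09 and 0.525 CPM against 2.21 and 2.66 CPM. It was the 1 member higher by the rule, with a log2 fold change of 1.68 (SE 0.50, adjusted p = 0.141, edgeR). Adamts5, the other main aggrecanase, had WT levels of 7.97 and 5.20 CPM and KO levels of 4.98 and 3.70 CPM (log2 fold change −0.59, adjusted p = 0.369, edgeR). Adamts1 had WT levels of 2.54 and 5.44 CPM and KO levels of 3.77 and 3.74 CPM, between the 2 WT levels (log2 fold change −0.11, adjusted p = 0.894, edgeR). Adamts15 had 187 and 85 WT reads and 29 and 18 KO reads, or 22.6 and 4.05 CPM against 1.46 and 0.694 CPM. The KO levels of Adamts15 were below both WT levels, which themselves lay far apart, and the log2 fold change of −3.62 (SE 1.05) was not called by edgeR (adjusted p = 0.135, and 0.00259 to 0.2099 over all fits of the 4 libraries). Adamts9, a secreted relative of Adamts20, was flat (log2 fold change −0.05, SE 0.25).

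The procollagen N-proteinases Adamts2, Adamts3 and Adamts14 differed among themselves. Adamts2 stood at 74.2 CPM in WT replicate 1, 8.59 CPM in WT replicate 2 and 7.60 and 6.203 CPM in KO, so its log2 fold change of −2.58 (adjusted p = 0.232, edgeR) came down to −0.32 without WT replicate 1. Adamts3 had WT levels of 9.42 and 8.73 CPM and KO levels of 8.30 and 9.40 CPM, with overlapping groups. Adamts14 had WT levels of 2.78 and 3.67 CPM and KO levels of 6.54 and 5.28 CPM, higher in both KO libraries (log2 fold change 0.86, SE 0.33, adjusted p = 0.205, edgeR).

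Adamts13, which cuts von Willebrand factor, had 13 and 56 WT reads and 83 and 116 KO reads, or 1.57 and 2.67 CPM against 4.17 and 4.47 CPM. The groups did not overlap, and the log2 fold change of 0.996 (SE 0.40) was not called (adjusted p = 0.214, edgeR). Its substrate gene Vwf had a value of −1.51 (adjusted p = 0.126, edgeR). Adamts7 and Adamts12, a related pair of enzymes known to cut cartilage oligomeric matrix protein, had values of opposite sign. Adamts7 had WT levels of 13.6 and 28.8 CPM and KO levels of 42.5 and 40.3 CPM (log2 fold change 0.96, adjusted p = 0.239, edgeR), and 6025 of its bases overlap Tbc1d2b on the opposite strand. Adamts12 had WT levels of 10.9 and 5.34 CPM and KO levels of 2.46 and 2.70 CPM (edgeR log2 fold change −1.64, SE 0.46, adjusted p = 0.132). Adamts6 and Adamts10, relatives linked to fibrillin microfibrils, had overlapping groups, at 195 and 127 CPM in WT against 143 and 132 CPM in KO for Adamts6 and 28.3 and 57.7 CPM against 50.7 and 48.7 CPM for Adamts10.

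With TMM factors each WT library alone gave the same sign for 33 of the 38 members tested, and with library totals for 24. The same share over all genes was not counted, so these counts do not set the members apart from other genes. The 5 exceptions with TMM factors were Adamts1, Adamts3, Adamts6, Adamts10 and Adamts20, and the 14 with library totals were 8 Adamts, 4 Mmp and 2 Timp genes. Adamts1 had a log2 fold change of 0.55 against WT replicate 1 and −0.53 against WT replicate 2, and Adamts10 of 0.80 and −0.21. Of the called members, Mmp3 had values of 4.81 and 5.24, Timp1 of 2.48 and 2.77 and Mmp10 of 5.08 and 6.36 with TMM factors. By library totals Mmp3 was 71.0-fold and 41.3-fold higher and Timp1 14.2-fold and 7.52-fold. Mmp25 (4.37 and 1.40), Mmp9 (3.01 and 0.92), Mmp23 (3.05 and 1.09) and Mmp12 (3.97 and 2.44) had larger values against WT replicate 1 than against WT replicate 2. These 2 comparisons share the KO libraries.

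**Figure D3:**
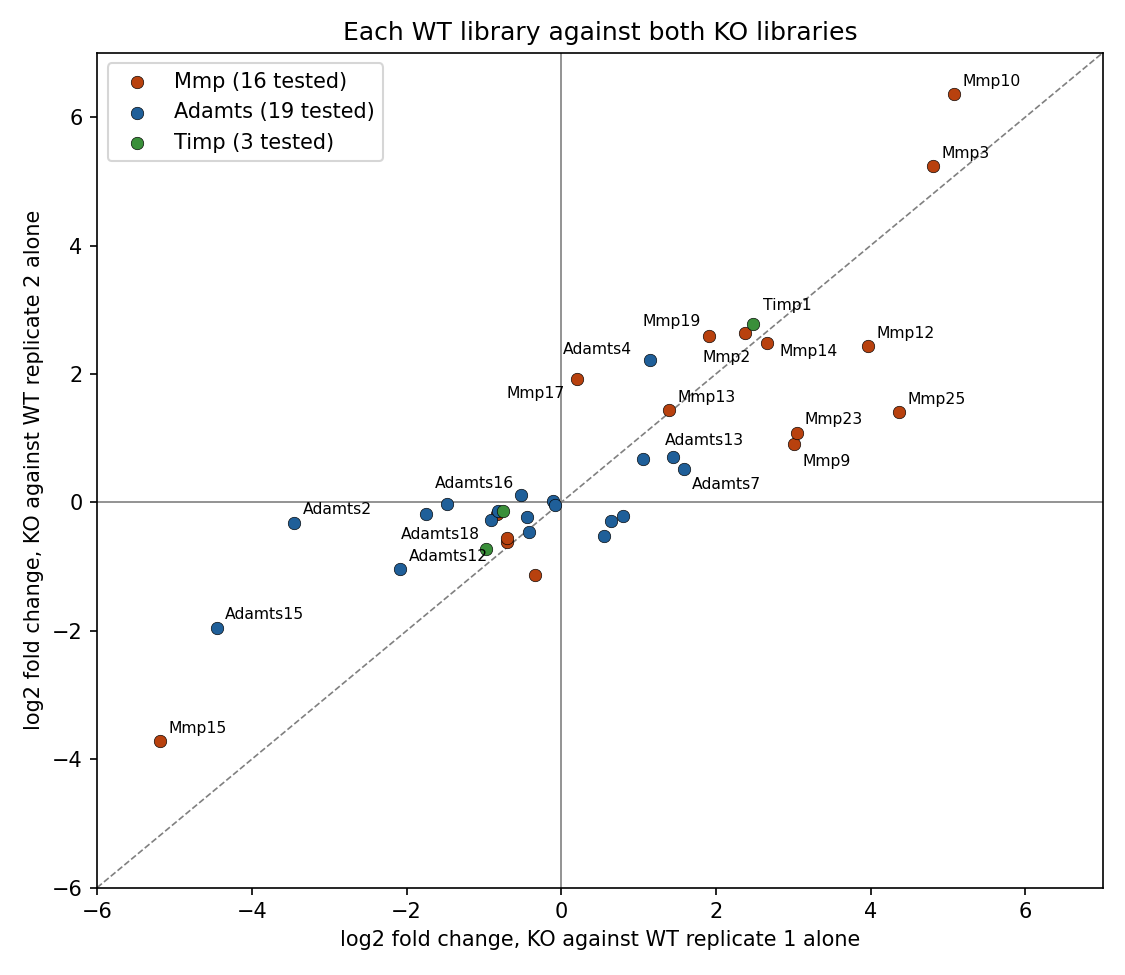
Log2 fold change of the 38 tested members against WT replicate 1 alone (x axis) and WT replicate 2 alone (y axis), with TMM factors, 1 point per gene, with the dashed line marking equal values. Mmp3, Mmp14, Mmp2 and Timp1 lie in the upper right near the line and Mmp10 in the upper right above it. Mmp25, Mmp9, Mmp23 and Mmp12 lie below the line, and Mmp15 and Adamts15 in the lower left.

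Marker genes of cell types that commonly make these enzymes differed in level between the groups, with few of them called by edgeR. Over all genes, 8.93% were higher and 12.2% lower by the 2-fold rule, and edgeR called 1.04% higher and 2.18% lower. At an unadjusted p under 0.05 edgeR had 10.5% of genes positive. DESeq2 called 5.67% of genes higher and limma-voom 1.21%. Macrophage marker reads came to 59.0 and 254 (WT) and 997 and 943 (KO) CPM of library totals. With TMM factors the sums were 115 and 216 against 783 and 729. All 5 markers found (of 6 listed) were higher by the 2-fold rule. edgeR called 1, Fcgr1 (log2 fold change 2.004, adjusted p = 0.0497, edgeR), with 5 positive at an unadjusted p under 0.05. DESeq2 called 5 and limma-voom 0. Fibroblast marker reads were 211 and 280 in WT and 959 and 786 in KO by library totals, and 410 and 238 against 752 and 607 with TMM factors. Of the 6 fibroblast markers 3 were higher by the rule. edgeR called 0 (4 positive at an unadjusted p under 0.05), DESeq2 3 and limma-voom 0. By library totals, neutrophil marker reads were 1.55 and 17.1 in WT and 87.5 and 95.5 in KO. S100a8, S100a9, Ly6g and Elane had 0 reads in WT replicate 1. Of the 6 neutrophil markers 4 were higher by the rule, which Elane could not pass with under 20 reads. edgeR called 0 of the 5 it tested (3 positive at an unadjusted p under 0.05), DESeq2 1 and limma-voom 0. Smooth muscle and myoepithelial marker reads were 296 and 477 in WT and 66.4 and 47.3 in KO by library totals. With TMM factors they were 577 and 406 against 52.1 and 36.6, and all 3 markers fell. Endothelial marker reads were 37.7 and 285 in WT and 278 and 224 in KO by library totals, with overlapping groups. The part of these cell types in the Mmp, Adamts and Timp values was not tested.

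Genes that activate, bind or oppose the metalloproteases showed a mixed picture. Of 19 such genes tested, 2 rose, A2m and Plau, and 5 were higher and 1 lower by the 2-fold rule, against 1.04% of genes called higher and 8.93% and 12.2% by the rule. A2m, a broad protease inhibitor, had 1 and 7 WT reads and 211 and 250 KO reads (log2 fold change 5.26, SE 0.50, adjusted p = 0.0441, edgeR). Plau, the urokinase plasminogen activator, had WT levels of 10.99 and 11.6 CPM and KO levels of 46.8 and 54.4 CPM (edgeR log2 fold change 2.16, SE 0.21, adjusted p = 0.0442). Its receptor gene Plaur had a log2 fold change of 2.42 (adjusted p = 0.215, edgeR) and was higher by the rule without being called. Tfpi2 and Lrp1 were also higher by the rule. Spock2 was the 1 lower, with WT levels of 15.9 and 9.87 CPM and KO levels of 2.36 and 2.43 CPM. Reck, which encodes a membrane-anchored inhibitor of Mmp enzymes, and Bsg, which encodes an inducer of Mmp expression, passed neither the test nor the rule. Their values were −0.80 and −0.86. Bsg stood at 366 and 182 CPM in WT and at 158 and 144 CPM in KO. Among 18 other matrix proteases 6 were higher (Adam8, Adam17, Ctsb, Ctsk, Ctss and Htra1) and 1 lower by the rule, against the same 8.93% and 12.2%. Elane and Ctsg, with under 20 reads, could not pass it. Of the 16 tested, edgeR called 0 higher and 1 lower, against 1.04% and 2.18% of genes. Adam28 fell: its WT levels of 8.94 and 15.9 CPM compare with KO levels of 0.453 and 0.424 CPM (edgeR log2 fold change −4.81, SE 0.47, adjusted p = 0.0442).

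Of the 6 ADAMTS-like genes, which share the non-catalytic domains of the family but lack the protease, 4 were lower by the 2-fold rule (Adamtsl1, Adamtsl2, Adamtsl5 and Papln), against 12.2% of genes. edgeR called 0, with 4 negative at an unadjusted p under 0.05, against 16.4% of genes. DESeq2 called 3 lower, against 10.6%, and limma-voom 0. Papln had the smallest adjusted p, at a log2 fold change of −2.60 (SE 0.35, adjusted p = 0.0501). Among 17 substrate and matrix genes outside the collagens, 4 were higher by the rule (Fn1, Bgn, Thbs1 and Thbs2) and 3 lower (Bcan, Lum and Postn), against 8.93% and 12.2% of genes. edgeR called 0, with 5 positive and 4 negative at an unadjusted p under 0.05, against 10.5% and 16.4%. DESeq2 called 3 higher and 4 lower, against 5.67% and 10.6% of genes, and limma-voom 1 and 1, against 1.21% and 1.95%. Bgn, a small proteoglycan gene, had a value of 2.08 (adjusted p = 0.0523), and Lum, of the same proteoglycan family, of −3.25 (adjusted p = 0.0528). Matrix substrates thus had values in both directions.

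The authors also deposited a table of log2 values, centred on each gene's median, and a table of comparisons. In the authors' deposited table of comparisons 9 members are listed as higher and 3 as lower at an unadjusted p under 0.05, against 6.52% and 7.95% of the 38087 genes. The members listed higher there are Mmp2, Mmp3, Mmp10, Mmp12, Mmp13, Mmp14, Mmp19, Adamts14 and Timp1, and those listed lower are Mmp15, Adamts17 and Timp4. None of the 46 is in the authors' 2 short lists. With the 2-fold rule applied to the deposited log2 values, 14 members were higher and 5 lower, against 9.87% and 13.3% of genes with 20 reads, and the 14 included all 12 found from the reads.

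Adamts17 gave different values in the 2 kinds of table. It had 123 and 325 WT reads and 206 and 313 KO reads, a log2 fold change of −0.44 (SE 0.22, adjusted p = 0.293, edgeR). In the authors' deposited log2 table it stands at 2.04 and 1.98 in WT and −1.98 and −3.33 in KO, and their table of comparisons lists −4.67 (unadjusted p = 0.0112). The length given in the reads table equals the whole genomic span of each gene. Adamts17 spans 312.9 kb, of which exons in the GENCODE M21 annotation cover 2.48%. Adamts18 (151.5 kb) had −1.11 from the reads and −3.14 as the difference of group means in the log2 table, and Adamts20 (195.3 kb) 0.07 and 1.66. Over the 11 tested members of at least 100 kb, the median absolute gap between the 2 values was 0.63, against 0.13 over the 27 shorter ones; over all tested genes the medians were 0.38 for 2502 long and 0.13 for 18193 shorter genes. Adamts13 and Mmp25, both short, also differed by over 1, with 3.16 and 3.20 in the log2 table. How the log2 table was made is not given in the sources used here, and why the tables differ was not tested. The 5 called members have similar values in both, such as 5.03 and 5.07 for Mmp3.

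**Figure D4:**
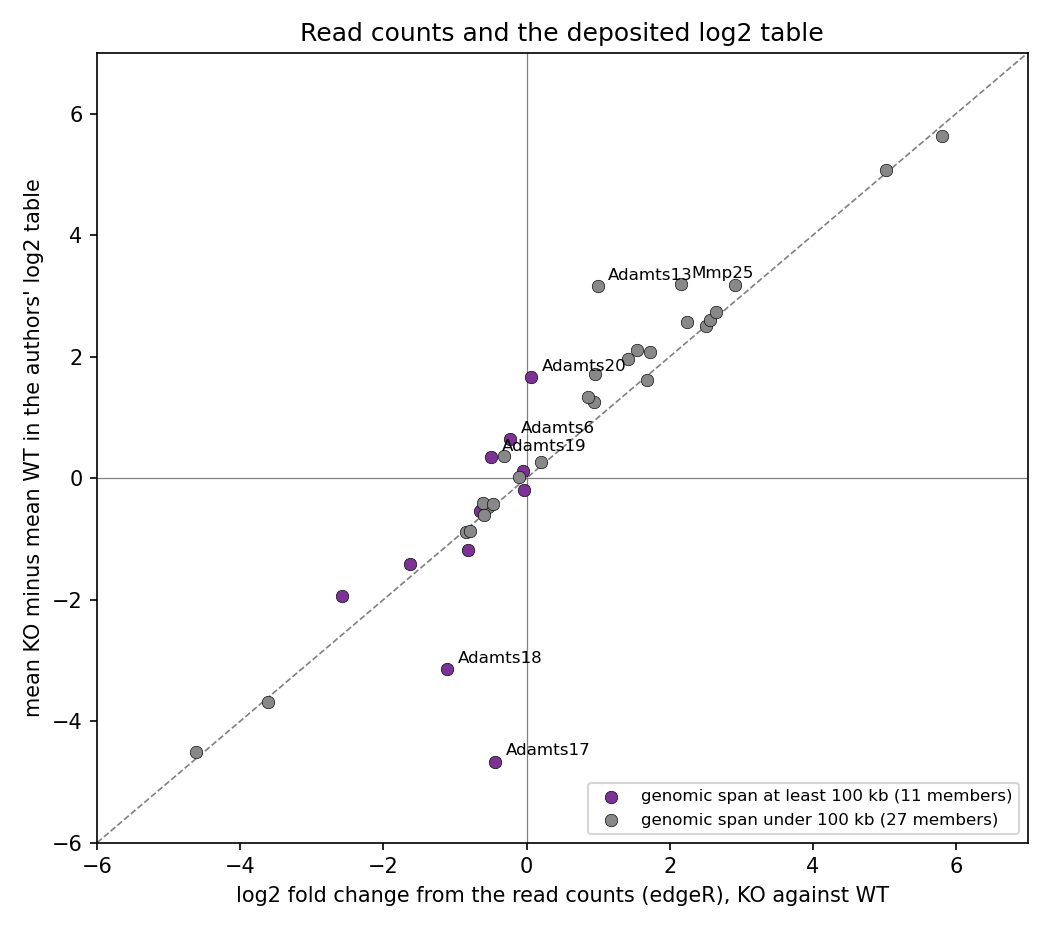
Log2 fold change from the read counts (x axis) against the difference of group means in the authors' deposited log2 table (y axis) for the 38 tested members, coloured by genomic span; the dashed line marks equal values. Adamts17 and Adamts18 lie far below the line and Adamts13, Mmp25 and Adamts20 above it, while Mmp3 and Mmp10 lie on or near it.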

How the data were processed

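RNA was measured in 2 WT and 2 KO samples after ribosomal RNA depletion and Ion Torrent library preparation, per the labels' protocols. The authors deposited whole-number read counts per gene, per the file headers. They also deposited log2 values, which in each of 38087 genes have a median of 0 across libraries (within 1e-05), and a table of comparisons that, per the file headers, gives a log2 fold change, a fold (ratio) and a p-value without adjustment. The submitters' processing notes name mm10 and DESeq2 1.62 without a role; no source used here gives the aligner or counter. The other 8 columns of per-sample values were not used.

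The quasi-likelihood test of edgeR 4.0.16 (R 4.3.3) was run on the counts with TMM factors and no covariate, after filterByExpr (min.count 10, min.total.count 15). TMM factors were 0.513 in WT replicate 1 and 1.18 to 1.30 in the others. Levels are CPM scaled by TMM, except where library totals are named. SE is the log2 fold change over the square root of the F statistic. The steps were tested on simulated data. Intervals are exact, at the 95% level, and cover counting error only. All 46 members were in GENCODE M21 on the same chromosome and strand, 25 with the same start and end. Of 98 list entries 97 matched a gene, and some listed genes are not reported here.

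The alternatives tried were library totals, DESeq2 size factors, no filter on low counts, a stricter one (at least 20 reads, and 1 CPM in 2 libraries), DESeq2 1.42.0, limma-voom (limma 3.58.1), a replicate block and each library left out; the crossed block and the use of the log2 table were added after seeing the data. Members described in full were those that passed the test or the 2-fold rule, all Timp genes, Mmp2, Mmp3, Mmp8, Mmp9, Mmp12, Mmp13, Mmp14, Mmp19, Adamts1, Adamts4, Adamts5 and Adamts13; other members named with values were chosen after those were seen. The members and lists were chosen with earlier results of these data known.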

Additional observations from a re-analysis of the deposited data

How the results depend on the processing

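The members called (5 higher, 0 lower with edgeR) and the genes called (216 higher, 451 lower) moved with the setting. Library totals and a replicate block each gave 0 and 0 members and 0 and 0 genes; edgeR without the count filter gave 7 and 1 members and 542 and 1188 genes, and DESeq2 gave 7 and 2 members and 1277 and 2382 genes. Same-numbered libraries deviated with a correlation of −0.108 across genes, and a crossed block gave 4 and 1 members and 202 and 643 genes. DESeq2 size factors, limma-voom and the stricter filter gave 4, 4 and 5 members higher and 0 lower. Leaving out 1 library gave 0 to 14 members and 0 to 6887 genes higher, and 0 to 11 members and 0 to 6922 genes lower; the 0 counts came from leaving out either KO library, and the high counts rest on 1 WT library. By the 2-fold rule 10 to 15 members were higher and 3 to 5 lower over the other settings. Over all genes these settings gave 1766 to 2901 higher and 1800 to 3519 lower. With 1 library left out the ranges were 12 to 19 and 4 to 7 members, and 2032 to 5831 and 2833 to 5192 genes. Mmp8 no longer passed without KO replicate 2, where Mmp9 did. Adamts12 no longer passed without KO replicate 1, where Timp3 did. Library totals moved the median of all genes from 0.01 to 0.60 on the log2 scale. Signs turned for Timp2 (0.25), Adamts1 (0.32) and Adamts5 (0.12) with library totals. For Adamts1 the values with 1 library left out ran from −0.53 to 0.55. Of the 20 members described in full and fitted, the other 17 kept their sign in each fit they entered, and Mmp13 did not enter the stricter filter. The causes were not tested.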
